A study of Mus musculus with 8 samples.

Results

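The transcripts described here encode the machinery that brings proteins into mitochondria and keeps them folded or degrades them there. The members were all genes whose platform symbol begins with Timm or Tomm and a digit, together with named genes of import, folding and proteolysis. A member needed a probe set annotated with 1 gene symbol, and its brightest probe set, averaged over both fractions, stood for the gene. This gave 36 genes of the 18193 named genes on the array. Another 4 genes, Dnajc19, Phb, Tomm5 and Tomm6, had only probe sets annotated with 2 symbols and were not analysed here.

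The study compared 2 flow-sorted fractions of leukaemic spleen cells from 4 mice with acute myeloid leukaemia driven by the MLL-AF10 fusion gene. CD117pos denotes the fraction with high surface c-kit (CD117), and CD117neg the fraction with low or no c-kit. In both, the leukaemia had been started from c-kit-positive stem and progenitor cells of bone marrow that were immortalised by retroviral transduction. These had been transplanted into syngeneic recipients, spelled CD57BL/6 in the labels, after sub-lethal irradiation, so that spleens could also hold cells of the host. The labels used here state neither the ages of the mice nor whether the 4 leukaemias came from 1 or several transductions. Each mouse gave 1 array per fraction, and the mice are called _948, _951, _952 and _953 after the array titles. Values listed for 4 arrays follow that order of mice.

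Most mitochondrial proteins are made in the cytosol and cross the outer membrane through the TOM complex, whose receptors recognise them and whose channel is formed by the TOM40 protein. From there small TIM chaperones carry hydrophobic proteins through the intermembrane space, the TIM22 complex inserts metabolite carriers into the inner membrane, and the TIM23 complex passes proteins with a cleavable presequence to the matrix, pulled by a motor around the chaperone mortalin. In the matrix the presequence is removed by a processing peptidase, a chaperonin folds the protein, and the proteases LON and CLP remove damaged or unassembled proteins. Inhibition of mitochondrial proteolysis is known to kill some acute myeloid leukaemia cells in culture.

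Kit, the gene of the sorted receptor, checked the labels: its intensity was 754, 741, 599 and 909 in the CD117pos arrays, against 28.7, 39.2, 15.7 and 30.9 in the CD117neg arrays, higher in 4 of 4 mice. Cells were sorted on its product, so this only checks the sort. The myeloid markers Mpo and Elane were at 8583 ± 1656 and 5416 ± 773 in CD117pos arrays and 1868 ± 461 and 1009.5 ± 411 in CD117neg arrays (SD, n = 4 each), and Hoxa9 was at 5446 ± 496 and 5516 ± 414. Of markers of other cells, 0 of 7 erythroid, 0 of 7 T cell, 0 of 6 B cell, 0 of 4 NK cell, 0 of 5 megakaryocyte and 0 of 4 stromal genes passed the test described below, while 1 of 6 mast cell and basophil genes rose (Mcpt8, difference 1.69 ± 0.13) and 1 of 4 endothelial genes fell (Pecam1, -0.89 ± 0.16, a call that ended when any mouse but _951 was left out). Of the 8 measured myeloid markers 2 rose, Mpo and Elane, and 4 fell, among them Csf1r and Itgam, receptors of mature myeloid cells, with differences of -3.30 ± 0.38 and -2.39 ± 0.45. All 7 T cell markers, 5 of the 7 erythroid markers (Hba-a1, Klf1, Alas2, Rhag and Slc4a1) and the mast cell markers Cpa3, Tpsb2, Cma1 and Fcer1a averaged below 30.2, the median of all values on the arrays. The CD117pos array of mouse _951 stood apart, with correlations of log2 values of 0.928 to 0.930 with the other CD117pos arrays, which reached 0.985 to 0.987 among themselves. In it the summed mast cell and basophil markers reached 1298, against 304.1 in the lowest CD117pos array and 97.2 to 268.8 in CD117neg arrays. The summed stromal markers reached 752, against 100.5 in the lowest CD117pos array and 143.4 to 202.1 in CD117neg arrays. Few genes carried these sums: Ms4a2 (722) and Mcpt8 (527) the first, Pdgfrb (551) and Col1a2 (165) the second. The other markers in these sums did not all follow. Cpa3 (5.88) was lowest in this array among CD117pos arrays, and Fcer1a (12.3) and Cma1 (17.3) were highest, though dim. Tpsb2, Col1a1 and Col3a1 lay within the range of the other CD117pos arrays. The part of cells of these types in the results was not tested, and results that rest on this array are given with and without it.

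Genes of mitochondrial import and quality control were more often higher than lower in CD117pos cells. Of the 36 members, 15 rose and 1 fell (limma with mouse as a block, Benjamini-Hochberg adjusted p under 0.05 over 18193 genes), while 20 did not pass. Over all named genes, 8.27% were called higher and 13.8% lower, against 41.7% and 2.78% of the members. Many named genes are dim. Among genes of mean intensity at least 64 rises were more frequent, and the share of members was a smaller multiple of the share of all genes. Of these 9408 genes, 17.9% were higher and 26.8% lower, and of the 34 members among them 19 rose (55.9%) and 1 fell. The median log2 difference was 0.44 for the members and -0.01 for all named genes, and 32 of 36 members had a difference above 0. Differences are CD117pos minus CD117neg in log2(intensity + 16), which understates the change of dim genes, and folds are taken from them. They were modest: the largest was 2.54-fold, for Clpp. In bulk fractions, more RNA of a gene per cell and more cells that express it cannot be told apart. The members were chosen with earlier results of these data known.

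More members rose than fell under each scaling of the arrays. After quantile normalisation 23 members rose and 1 fell, with 13.3% of all genes higher and 10.7% lower, and after centring on array medians 19 rose and 1 fell, with 11.1% higher and 10.8% lower. The share of rises among all calls was 37.5% with the deposited scaling, 55.4% with quantile normalisation and 50.8% with centring. The number of calls depended on the mice: without mouse _948, _952 or _953 there were 6, 7 and 7 rises and no fall, and without mouse _951 there were 16 rises and 1 fall. Calls over all named genes changed too. Without _948, _952, _953 or _951, 2.31%, 3.21%, 2.29% and 11.6% of them were higher, against 16.7%, 19.4%, 19.4% and 44.4% of the members. Calls made with all mice and kept in each of these 4 fits were those of Clpp, Timm9, Timm8a1, Timm10, Tomm40l and Timm29. The median difference of the members was 0.37 to 0.48 over the same fits.

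**Figure D1:**
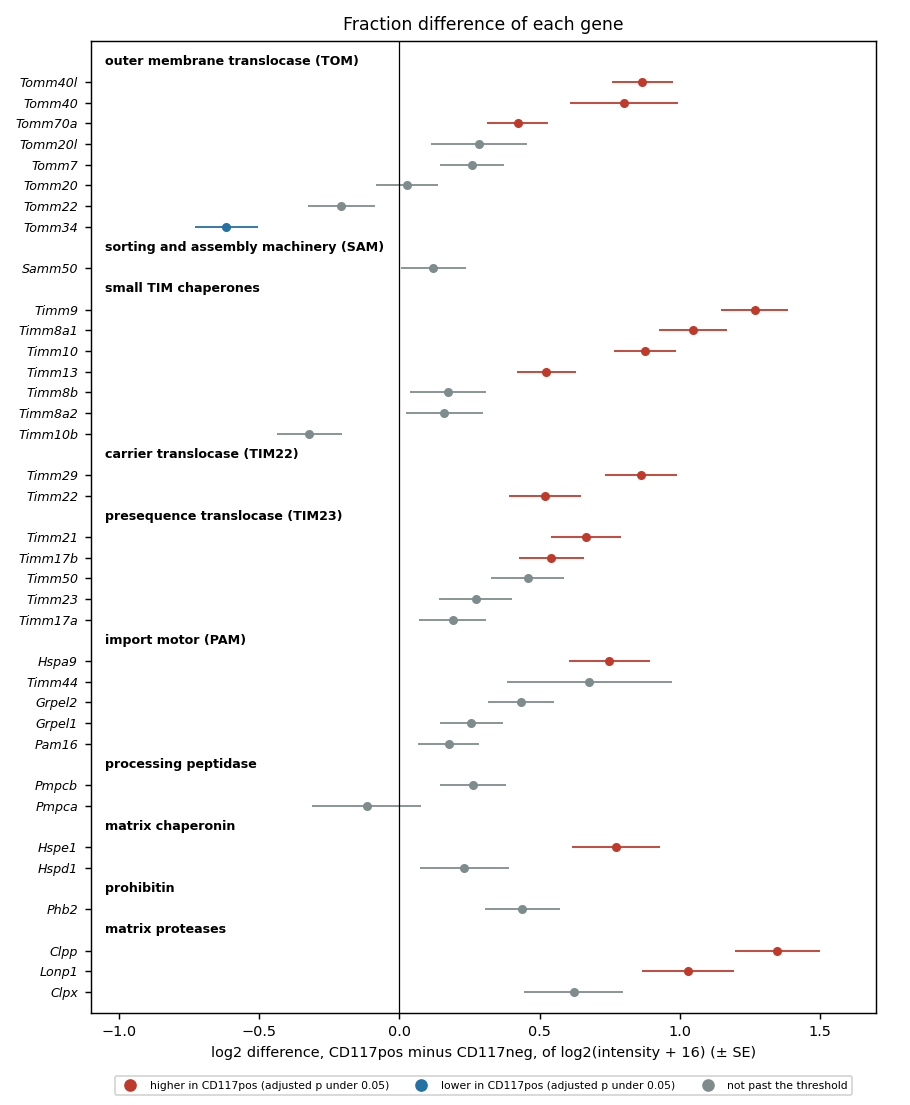
Log2 difference of each of the 36 genes, CD117pos minus CD117neg, in log2(intensity + 16), grouped by role (points, estimates over 4 mice; bars, SE). The 15 rises in red lie between 0.42 and 1.35, the 1 fall in blue is Tomm34 at -0.62, and the 20 genes in grey did not pass the threshold.

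In the TOM complex the channel genes rose, and one receptor gene rose with them. Tomm40 (Entrez gene 53333), which encodes the channel, measured 482, 204, 289 and 324 in the CD117pos arrays, against 195, 171, 175 and 147 in the CD117neg arrays. The lowest CD117pos value, in mouse _951, was close to the highest CD117neg value. Its log2 difference was 0.80 ± 0.19 (limma, adjusted p = 0.0353), a 1.74-fold rise whose call ended with a pseudocount of 1 and when mouse _948, _952 or _953 was left out. Tomm40l, a paralogue of the channel gene, measured 425, 340.3, 371 and 385 in the CD117pos arrays, against 208, 198, 193 and 205 in the CD117neg arrays. Its groups were far apart and narrow, with a difference of 0.87 ± 0.11 (limma, adjusted p = 0.00551). Averaging both of its probe sets gave a smaller difference of 0.47, still past the threshold. Tomm70a, the receptor for carrier proteins, measured 1228, 1359, 1356 and 1402 in the CD117pos arrays, against 882, 1002, 1093 and 1004 in the CD117neg arrays. The groups did not overlap, and the difference was 0.42 ± 0.11 (limma, adjusted p = 0.0424), a call that ended with a pseudocount of 1, with its probe sets averaged (0.28) and when any mouse but _951 was left out. Quantile normalisation gave 0.63.

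The other TOM genes did not pass with the probe sets used, apart from Tomm34, described below. Tomm20, the presequence receptor, averaged 4401 ± 97.5 in CD117pos and 4321 ± 222 in CD117neg arrays (SD, n = 4 each), with a difference of 0.03 ± 0.11 (limma, adjusted p = 0.89). Its 6 probe sets disagreed: one of the others averaged 1277 ± 140.1 against 588.7 ± 38.9, a difference of 1.09 ± 0.14 that passed (limma over 34945 probe sets, adjusted p = 0.00526), and 4 did not pass. Tomm22, the central receptor, averaged 490.1 ± 41.4 in CD117pos and 567 ± 20.8 in CD117neg arrays, with a difference of -0.21 ± 0.12 that did not pass. Tomm7, a small subunit that modulates the assembly of the complex, had a difference of 0.26 ± 0.11 that did not pass, although its 4 CD117pos arrays lay above its 4 CD117neg arrays. Another of its 4 probe sets passed, with a difference of 0.50 (limma, adjusted p = 0.0445), and the brightest passed after quantile normalisation (0.47, adjusted p = 0.0363). Tomm20l averaged 5.33 ± 5.68 and 1.08 ± 0.165, far below the array median, and carries no information here.

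Tomm34 was the member that fell. It encodes a largely cytosolic co-chaperone that binds the chaperones HSP70 and HSP90. Its intensity was 466, 358, 437 and 435 in the CD117pos arrays, against 676, 620.3, 698 and 630.2 in the CD117neg arrays. All CD117pos arrays lay below all CD117neg arrays, and the difference was -0.62 ± 0.11 (limma, adjusted p = 0.0152), a 1.53-fold fall. The call ended when any mouse but _951 was left out, with differences between -0.65 and -0.60 in these fits. Samm50, the core of the machinery that inserts barrel-shaped proteins into the outer membrane, averaged 2307 ± 324 in CD117pos and 2108 ± 169 in CD117neg arrays, and its difference of 0.12 ± 0.12 did not pass.

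**Figure D2:**
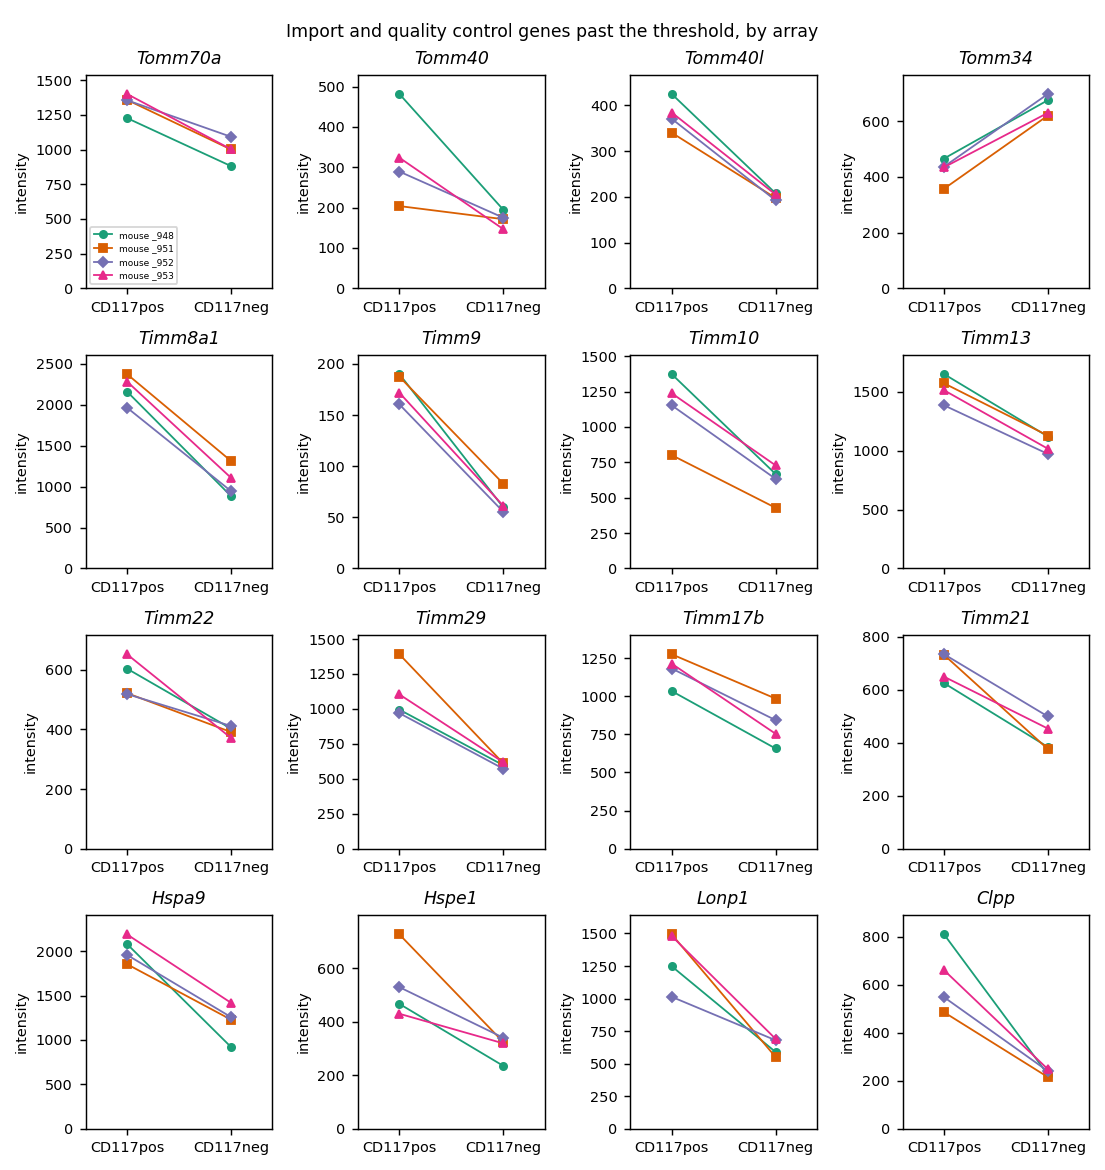
Intensity of the 16 genes past the threshold on each array, with CD117pos on the left and CD117neg on the right of each panel, and a line for each of the 4 mice. Lines fall to the right in all 15 genes called higher and climb in Tomm34, and in every panel the 2 fractions do not overlap.

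The small TIM chaperones held the largest rises among the import genes. They are short proteins of the intermembrane space that form ring-shaped hexamers, one of TIM9 with TIM10 and another of TIM8 with TIM13. Timm9 (Entrez gene 30056) measured 190.0, 187, 160.4 and 172 in the CD117pos arrays, against 59.9, 83.0, 55.5 and 61.4 in the CD117neg arrays. Even the lowest CD117pos array was well above the highest CD117neg array, and the difference of 1.27 ± 0.12 (limma, adjusted p = 0.00255) was a 2.40-fold rise. Its second probe set, the one left when probe sets of shared sequence were dropped, gave 0.68, also past the threshold. Timm10 (Entrez gene 30059), the partner of Timm9, measured 1373, 801, 1152 and 1238 in the CD117pos arrays, against 668, 429, 633 and 729 in the CD117neg arrays. Mouse _951 had the lowest value in both fractions, while the difference within each mouse stayed between 0.75 and 1.02. Its overall difference was 0.87 ± 0.11 (limma, adjusted p = 0.00556).

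Timm8a1 (Entrez gene 30058), the mouse counterpart of the human deafness-dystonia gene TIMM8A, measured 2159.8, 2373, 1963 and 2282 in the CD117pos arrays, against 886, 1314, 946 and 1109 in the CD117neg arrays. The difference was 1.05 ± 0.12 (limma, adjusted p = 0.00425), a 2.07-fold rise with no overlap. The second probe set of Timm8a1, dimmer, averaged 319 ± 189 in CD117pos and 176 ± 18.2 in CD117neg arrays. That probe set differed by 0.66 ± 0.25 and did not pass (limma over all probe sets with 1 symbol, adjusted p = 0.136). Timm13, whose protein pairs with TIM8, measured 1649.7, 1572, 1385 and 1513 in the CD117pos arrays, against 1120.0, 1128, 972 and 1016 in the CD117neg arrays. The groups were separate, and the difference of 0.52 ± 0.10 (limma, adjusted p = 0.0201) was close to the same in every mouse, between 0.47 and 0.57, yet the call ended with a pseudocount of 1 and when any mouse but _951 was left out. Timm8b, a second TIM8 gene, averaged 339.6 ± 45.9 and 298 ± 21.6, a difference of 0.17 ± 0.14 that did not pass. Timm8a2 averaged 8.48 ± 4.55 and 5.66 ± 1.17, below the array median. Timm10b, whose product sits on the TIM22 complex, had all 4 CD117pos arrays below all 4 CD117neg arrays, at 548, 474, 532 and 510.1 in the CD117pos arrays, against 676, 598, 596 and 728 in the CD117neg arrays. Its difference of -0.32 ± 0.12 did not pass (limma, adjusted p = 0.11). With a pseudocount of 64 it passed, at -0.30 (adjusted p = 0.0419).

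The promoters of the 3 small TIM genes with the largest rises are shown because each held an E-box, CACGTG, the palindromic sequence bound by MYC, MAX and related factors. They are RefSeq windows of 300 bases in the build GRCm38.p6, from 250 bases before to 50 after the annotated start of transcription, written 5′ to 3′ on the strand of the gene. Capitals mark matches to the 5 motifs searched. Timm9 lies at chr12:71136626-71136925 (minus strand), with E-boxes whose first bases are 58 bases and 1 base before the start and a match to GAANNTTC, a pair of heat shock element units. Timm8a1 lies at chrX:134541621-134541920 (minus strand), with E-boxes that begin 236 bases before the start and at base 25 after it. Timm10 lies at chr2:84826771-84827070 (plus strand), with an E-box at base 29 and a match to the ETS motif ACTTCCG, in reverse complement, at base 18.
Timm9: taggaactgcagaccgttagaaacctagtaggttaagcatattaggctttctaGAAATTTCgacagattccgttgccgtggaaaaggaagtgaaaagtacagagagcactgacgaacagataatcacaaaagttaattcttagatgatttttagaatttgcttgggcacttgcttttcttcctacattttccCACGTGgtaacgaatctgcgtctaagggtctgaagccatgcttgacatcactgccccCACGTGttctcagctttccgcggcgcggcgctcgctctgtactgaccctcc
Timm8a1: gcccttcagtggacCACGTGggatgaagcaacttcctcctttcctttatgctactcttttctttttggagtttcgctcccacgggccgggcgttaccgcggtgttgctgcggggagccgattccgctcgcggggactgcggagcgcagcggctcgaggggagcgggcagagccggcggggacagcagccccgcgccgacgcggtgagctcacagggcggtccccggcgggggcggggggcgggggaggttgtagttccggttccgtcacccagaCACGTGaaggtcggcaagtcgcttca
Timm10: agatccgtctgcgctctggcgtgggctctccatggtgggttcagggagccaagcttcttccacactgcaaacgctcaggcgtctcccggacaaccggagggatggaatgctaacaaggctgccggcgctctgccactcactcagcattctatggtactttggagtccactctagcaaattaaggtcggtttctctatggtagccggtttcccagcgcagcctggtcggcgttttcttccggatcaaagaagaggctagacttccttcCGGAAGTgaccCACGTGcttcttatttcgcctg

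Both members grouped here under the TIM22 complex, Timm22 and Timm29, rose, while 8.27% of all named genes did. Timm10b, counted above with the small TIM chaperones, did not pass. Timm22, which forms the carrier channel, measured 604, 522, 519 and 652 in the CD117pos arrays, against 403, 391, 412 and 372 in the CD117neg arrays. The difference was 0.52 ± 0.13 (limma, adjusted p = 0.0379), with no overlap between the fractions. Timm29, a metazoan subunit that links TIM22 to the TOM complex, measured 995, 1391, 969 and 1104 in the CD117pos arrays, against 597, 612, 572 and 619 in the CD117neg arrays. The CD117neg arrays were nearly level, and every CD117pos array lay well above them. Its difference was 0.86 ± 0.13 (limma, adjusted p = 0.00831), a 1.82-fold rise that kept its call under all alternatives tried. The call of Timm22 ended with a pseudocount of 1 and when any mouse but _951 was left out. Each gene had a second, dimmer probe set that did not pass in limma over all probe sets with 1 symbol. The differences were 0.49 ± 0.17 for Timm22 (limma, adjusted p = 0.11) and 0.69 ± 0.18 for Timm29 (limma, adjusted p = 0.0504).

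In the TIM23 complex 2 of 5 genes rose, Timm21 and Timm17b, against 8.27% of all named genes. The count was 4 after quantile normalisation, 3 after centring or with a pseudocount of 64, 1 with a pseudocount of 1 and 0 when any mouse but _951 was left out. Timm21, whose product joins TIM23 to the TOM complex and to respiratory chain assembly, measured 624, 731, 733 and 649 in the CD117pos arrays, against 383, 375, 499 and 453 in the CD117neg arrays. The difference was 0.66 ± 0.13 (limma, adjusted p = 0.0168). Timm17b, one of the 2 genes for the TIM17 subunit, measured 1034, 1276, 1183 and 1214 in the CD117pos arrays, against 658, 985, 844 and 754 in the CD117neg arrays, a difference of 0.54 ± 0.12 (limma, adjusted p = 0.0251). Neither gene had overlapping fractions. Both calls ended when any mouse but _951 was left out, and that of Timm17b also with a pseudocount of 1. The other TIM17 gene, Timm17a, averaged 971 ± 68.9 in CD117pos and 850.3 ± 70.8 in CD117neg arrays, with a difference of 0.19 ± 0.12 that passed in 1 of 14 alternatives, quantile normalisation (0.41, adjusted p = 0.0477 in limma). Timm23, the channel gene, averaged 3789.7 ± 537 and 3116 ± 154, with a difference of 0.27 ± 0.13 that did not pass (limma, adjusted p = 0.207). The receptor gene Timm50 measured 402, 299, 296 and 317 in the CD117pos arrays, against 233, 213, 225 and 265 in the CD117neg arrays, a difference of 0.46 ± 0.13 just outside the threshold (limma, adjusted p = 0.057), and it passed in 7 of 14 alternatives (adjusted p = 0.0219 to 0.0383). Another probe set of Timm50 passed, at 305.6 ± 95.6 against 133.9 ± 17.6 (limma over 34945 probe sets, difference 1.05 ± 0.16, adjusted p = 0.00929).

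Of the 5 import motor genes, 1 rose. With 8.27% of all named genes called higher, 1 rise in 5 genes is too few to set apart from that share. The count was 3 after quantile normalisation, 2 after centring or with a pseudocount of 64 and 0 when any mouse but _951 was left out. Hspa9, encoding mortalin, the chaperone that drives translocation, measured 2079.7, 1853, 1957 and 2188 in the CD117pos arrays, against 922, 1229.6, 1258 and 1419 in the CD117neg arrays. The fractions were apart in every mouse, most in mouse _948, where CD117neg was lowest, and the difference was 0.75 ± 0.14 (limma, adjusted p = 0.0178). This call ended when any mouse but _951 was left out. Of its 4 other probe sets, 2 rose too, with differences of 1.05 and 0.90. Grpel2 and Grpel1, which encode the nucleotide exchange factors of mortalin, had differences of 0.43 ± 0.12 (limma, adjusted p = 0.0514) and 0.26 ± 0.11 (limma, adjusted p = 0.175). Both were positive in 4 of 4 mice. Grpel2 passed in 7 of 14 alternatives (limma, adjusted p = 0.0175 to 0.0493), and Grpel1 in 1, quantile normalisation (0.0345). Pam16, a J-like regulator of the motor, averaged 1658 ± 220.1 in CD117pos and 1462 ± 145 in CD117neg arrays and did not pass (difference 0.18 ± 0.11). Timm44, the anchor of the motor at the channel, measured 899.9, 2058, 904 and 943 in the CD117pos arrays, against 793, 579, 720.4 and 707 in the CD117neg arrays. One array, CD117pos of mouse _951, stood far above all others, and the fractions did not overlap. The difference of 0.68 ± 0.29 did not pass with it (limma, adjusted p = 0.17), and without mouse _951 the difference was 0.30 (adjusted p = 0.109). With its probe sets averaged it passed, at 0.53 (adjusted p = 0.028).

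The 2 subunits of the matrix processing peptidase, which cuts off presequences, did not pass with the probe sets used. Pmpca, the substrate-binding subunit, measured 535, 308, 507 and 549 in the CD117pos arrays, against 431, 531, 542 and 519 in the CD117neg arrays. The value in the CD117pos array of mouse _951 was low, and the difference of -0.12 ± 0.19 changed sign without that mouse. Pmpcb, the catalytic subunit, averaged 1434 ± 40.3 in CD117pos and 1197 ± 119 in CD117neg arrays, a difference of 0.26 ± 0.12 (limma, adjusted p = 0.185). Each gene had a second, dimmer probe set that rose, by 0.64 for Pmpca and by 0.58 for Pmpcb (limma over 34945 probe sets, adjusted p = 0.0391 and 0.0212). With the brightest probe set Pmpcb also passed after quantile normalisation (0.48, adjusted p = 0.0362), and with its probe sets averaged the difference was 0.42 (adjusted p = 0.0355).

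Across the 36 genes, 22 had more than 1 probe set, which gave 41 further readings of the same transcripts. Of these, 11 rose, 0 fell and 30 did not pass in a limma fit over all 34945 probe sets with 1 symbol, in which 6.89% rose and 12.1% fell. The median difference of the 41 was 0.34, and 35 were above 0. In 5 genes (Tomm20, Tomm7, Timm50, Pmpca and Pmpcb) another probe set rose while the brightest did not pass.

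Of the matrix chaperonin, the co-chaperonin gene rose and the gene of the large subunit did not pass. Hspe1 (Entrez gene 15528), encoding HSP10, the lid of the folding chamber, measured 467, 727, 529 and 430.0 in the CD117pos arrays, against 235, 324, 341 and 319 in the CD117neg arrays. The difference was 0.77 ± 0.16 (limma, adjusted p = 0.0206), and its second probe set also rose by 0.77. The call ended without mouse _948 or _952. Hspd1 (Entrez gene 15510), encoding HSP60, measured 2761, 2428, 3012 and 2686 in the CD117pos arrays, against 1744, 2712, 2523 and 2379 in the CD117neg arrays. The fractions overlapped, with the CD117pos array of mouse _951 below the CD117neg array of the same mouse, and the difference of 0.23 ± 0.16 did not pass (limma, adjusted p = 0.374). Within mice the difference of Hspe1 exceeded that of Hspd1 by 0.54 ± 0.50 (SD, n = 4), in 4 of 4 mice (exact permutation test, two-sided p = 0.125). This is the smallest p that 4 pairs allow, so that no such comparison could pass.

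The neighbouring Hspe1 and Hspd1 genes are transcribed away from each other, and the promoter window of Hspe1 is shown because it overlaps those of Hspd1. The Hspe1 window at chr1:55087898-55088197 (plus strand) shares 285 bases with one of the 2 windows of Hspd1, at chr1:55087883-55088182 (minus strand). With the other, at chr1:55088194-55088493, it shares 4 bases. Capitals mark a match to GAANNTTC, 84 bases before the start of Hspe1.
Hspe1: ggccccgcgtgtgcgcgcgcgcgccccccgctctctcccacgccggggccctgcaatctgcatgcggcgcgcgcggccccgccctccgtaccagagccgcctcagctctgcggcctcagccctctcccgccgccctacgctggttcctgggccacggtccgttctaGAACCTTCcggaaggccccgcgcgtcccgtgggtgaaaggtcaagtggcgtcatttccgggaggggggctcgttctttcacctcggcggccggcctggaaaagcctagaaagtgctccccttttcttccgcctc

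Of the groups with more than 2 genes, matrix proteases had the highest median difference, 1.03 over 3 genes, and 2 of the 3 rose. Over all named genes, 8.27% rose. Clpp (Entrez gene 53895), the proteolytic core of the CLP protease, measured 809.9, 485, 548 and 661 in the CD117pos arrays, against 226, 215, 240.3 and 248 in the CD117neg arrays. The CD117neg arrays lay close together, and every CD117pos array lay well above them. The difference was 1.35 ± 0.15 (limma, adjusted p = 0.00393), a 2.54-fold rise that stood at the 99.1 percentile of all named genes, and its second probe set rose by 1.12. Lonp1 (Entrez gene 74142), the LON protease, measured 1248, 1493, 1013 and 1480.3 in the CD117pos arrays, against 589.9, 552, 680.0 and 691 in the CD117neg arrays. The groups did not overlap, and the difference of 1.03 ± 0.16 (limma, adjusted p = 0.0101) was a 2.04-fold rise. Leaving out mouse _948 or mouse _953 ended the call, with adjusted p of 0.0600 and 0.0609 in limma.

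Clpx, the unfolding partner of CLPP, measured 224, 125, 200.1 and 250.2 in the CD117pos arrays, against 125, 113, 134 and 112 in the CD117neg arrays. The CD117pos array of mouse _951 lay among the CD117neg arrays, and the difference of 0.62 ± 0.18 did not pass (limma, adjusted p = 0.0575). Without mouse _951 it was 0.78 and passed (adjusted p = 0.014), one of 5 alternatives of 14 in which it did. Its second probe set, dimmer, averaged 57.4 ± 7.28 in CD117pos and 89.5 ± 29.7 in CD117neg arrays, a difference of -0.49 ± 0.18 that did not pass. Phb2, a prohibitin of the inner membrane that forms ring-shaped scaffolds and restrains the m-AAA protease, averaged 2634 ± 294 in CD117pos and 1938 ± 209 in CD117neg arrays. Its difference of 0.44 ± 0.14 did not pass (limma, adjusted p = 0.0726), though the fractions did not overlap. It passed in 7 of 14 alternatives (adjusted p = 0.0238 to 0.0491). The other probe sets of Phb2 differed by 0.14 to 0.22 and did not pass.

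The promoter windows of both protease genes with a rise are shown for comparison with those of the small TIM genes. That of Lonp1, at chr17:56626854-56627153 (minus strand), held an E-box that begins 36 bases before the start. That of Clpp, at chr17:56990014-56990313 (plus strand), held no E-box and an ETS motif in reverse complement that begins 16 bases before the start.
Lonp1: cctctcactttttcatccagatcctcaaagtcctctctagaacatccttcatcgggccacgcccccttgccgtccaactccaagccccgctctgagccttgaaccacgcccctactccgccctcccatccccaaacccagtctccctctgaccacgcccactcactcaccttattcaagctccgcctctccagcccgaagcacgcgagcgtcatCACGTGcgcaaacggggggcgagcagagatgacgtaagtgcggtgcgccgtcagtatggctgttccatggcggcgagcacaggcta
Clpp: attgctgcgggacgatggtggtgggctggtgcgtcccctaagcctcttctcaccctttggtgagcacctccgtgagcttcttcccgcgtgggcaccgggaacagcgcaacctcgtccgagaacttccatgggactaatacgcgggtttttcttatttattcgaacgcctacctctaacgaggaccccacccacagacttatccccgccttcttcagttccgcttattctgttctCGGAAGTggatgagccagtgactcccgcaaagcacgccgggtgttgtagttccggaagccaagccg

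Over all members the motifs were counted as a description of sequence, with no test and no claim that a factor binds. RefSeq windows were available for 31 members, 34 windows in all. CACGTG was found in 7 of the 34 (20.6%), against 7.15% of all 32851 windows and 7.84% of those of protein-coding genes. ACTTCCG, read on both strands, was found in 11 (32.4%), against 6.42% and 8.39%. CCAAT was found in 29.4% (37.4% of all), GAANNTTC in 8.82% (7.86% of all) and the NRF1 motif, a palindrome, in 0 (0.971% of all). Member windows had a median GC content of 60.0%, against 52.7% for all windows and 56.3% for those of protein-coding genes, and the motif shares were not adjusted for this. CACGTG occurred in 4 of the 13 members past the threshold that had windows, and in 3 of the 18 others. For ACTTCCG these counts were 4 of 13 and 7 of 18. No 2 matches overlapped in the windows shown.

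The pairs of related genes compared here, each written with the larger difference first, differed in the size of the change, but no comparison could pass. Tomm40 and its paralogue Tomm40l, which were not among these pairs, had similar differences of 0.80 and 0.87. The difference of Timm10 exceeded that of Timm10b by 1.20 ± 0.13 (SD, n = 4), that of Timm8a1 exceeded that of Timm8b by 0.87 ± 0.33, and that of Clpp exceeded that of Clpx by 0.72 ± 0.34. The gaps were smaller between Timm17b and Timm17a, at 0.35 ± 0.17, and between Grpel2 and Grpel1, at 0.18 ± 0.09. Each was positive in 4 of 4 mice. The exact permutation p was the smallest that the design allows, 0.125 before and after adjustment over the 6 pairs compared. With the larger difference written first, a positive mean was set in advance, which made 4 of 4 positive signs likelier.

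The 4 mice agreed in the overall shift. The median difference of the members was 0.53, 0.42, 0.36 and 0.41 in mice _948, _951, _952 and _953, against medians between -0.05 and -0.01 over all named genes. A difference above 0 was seen for 31, 29, 33 and 31 of the 36 members. In 21 members all CD117pos arrays lay above all CD117neg arrays, as for 10.4% of all genes, and in 2 members, Tomm34 and Timm10b, they lay below, as for 17.3% of all genes. The CD117pos array of mouse _951 was the farthest from the mean of the other CD117pos arrays in 19 of the 36 members. In that mouse the differences of Tomm40 (0.23) and Clpx (0.13) were small and those of Timm44 (1.80) and Lonp1 (1.41) large. The 16 calls were all kept without mouse _951.

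**Figure D3:**
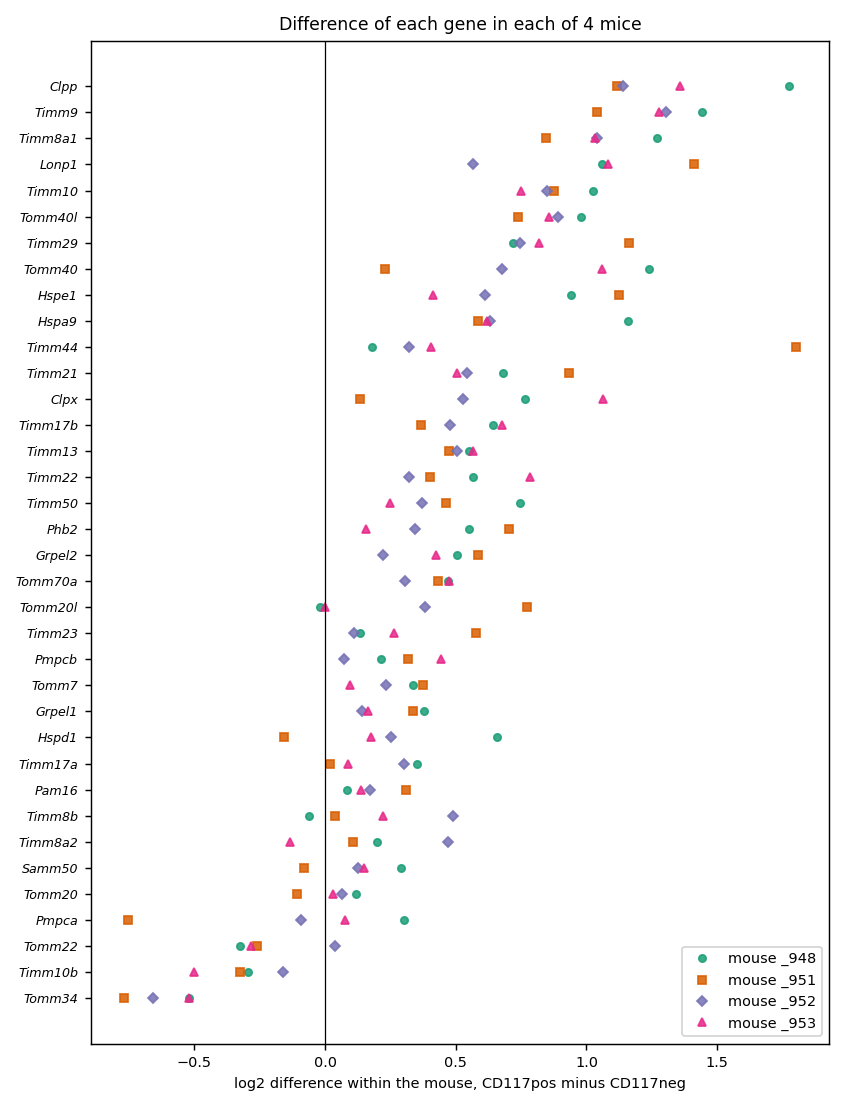
Log2 difference within each of the 4 mice (CD117pos minus CD117neg) for the 36 genes, ordered by their overall difference. In 26 genes all 4 points lie above 0 and in Tomm34 and Timm10b all lie below, while mouse _951 lies apart in Timm44 (1.80) and Pmpca (-0.75).

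Differences between mice shared by both fractions were not detected. For 0 of the 36 members, and 0% of all named genes, the mouse terms of the fit passed (limma moderated F-test, lowest adjusted p among members 0.578). At an unadjusted p under 0.05 there were 1386 genes, and Timm10 was the 1 member among them.

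Other genes of mitochondrial import leaned the same way, in a list that was also chosen with earlier results of these data known. Of 24 measured genes of a second import list, 9 rose and 0 fell, with a median difference of 0.46, while 8.27% of all named genes rose and 13.8% fell. Mipep, the intermediate peptidase that trims some imported proteins, averaged 392 ± 109 in CD117pos and 176 ± 13.9 in CD117neg arrays (difference 1.04 ± 0.21; limma, adjusted p = 0.0209). Trap1, the mitochondrial HSP90, averaged 838 ± 163 and 406 ± 94.9 (difference 1.03 ± 0.22), and Mtx3, a metaxin of the outer membrane, 485 ± 84.8 and 237 ± 22.9 (difference 0.97 ± 0.12). The calls of Mipep and Trap1 ended when any mouse but _951 was left out, that of Trap1 also with a pseudocount of 1, and that of Mtx3 was kept under all alternatives. Mipep differed by 0.60 with its probe sets averaged. Leaving out _948, _952 or _953 left 1, 1 and 2 rises in the list, leaving out _951 gave 11, and a pseudocount of 1 gave 5.

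Among 14 genes of inner membrane and other mitochondrial proteases and their partners, 3 rose and 0 fell, while 8.27% of all named genes rose and 13.8% fell. Afg3l2, a subunit of the m-AAA protease, averaged 791 ± 232 in CD117pos and 224 ± 63.7 in CD117neg arrays, a difference of 1.75 ± 0.20 (limma, adjusted p = 0.00409). The size depended on the probe set: it was 0.92 with the mean of its probe sets and 0.76 without those of shared sequence, past the threshold in both. Atad3a, an inner membrane ATPase, averaged 1408 ± 276 in CD117pos and 696 ± 125 in CD117neg arrays (limma, adjusted p = 0.00507). Htra2, a serine protease of the intermembrane space, differed by 0.73 ± 0.11 (limma, adjusted p = 0.00957). The call of Htra2 ended without mouse _948 or _952, and the list had 5 rises without mouse _951 and with quantile normalisation. Of 11 genes of fusion and fission, 2 rose and 0 fell: Mtfp1, an inner membrane fission protein (269 ± 54.3 against 68.9 ± 11.4), and Mfn2, an outer membrane fusion GTPase (634 ± 67.1 against 336 ± 38.5).

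Of 7 measured mitophagy genes, which mark mitochondria for removal, 0 rose and 2 fell, and 1 rose after quantile normalisation, after centring and with a pseudocount of 64. For scale, 8.27% of all named genes rose and 13.8% fell. Pink1, the kinase that gathers on mitochondria when import fails, averaged 373 ± 70.5 in CD117pos and 676 ± 83.3 in CD117neg arrays, a difference of -0.84 ± 0.13 (limma, adjusted p = 0.00949) whose call ended when any mouse but _951 was left out. Sqstm1, the p62 autophagy adaptor, differed by -1.17 ± 0.19, by -0.57 with its probe sets averaged and by 0.02 once probe sets of shared sequence were dropped. Neither fell without mouse _948, and 1 fell without _952 or _953. Of 13 genes of the mitochondrial stress response, 1 rose and 3 fell, and 1 rise in 13 is near the share over all named genes. The stress-induced gene Nupr1 averaged 18.9 ± 14.7 and 461 ± 153 (difference -3.80 ± 0.19; limma, adjusted p = 0.000472). Dele1, whose human product relays mitochondrial stress to the kinase HRI, differed by -1.22 ± 0.14 (by -0.63 with the mean of its probe sets), and Eif2ak1, the gene of that kinase, by -0.52 ± 0.11. Shmt2, a serine hydroxymethyltransferase of mitochondria, rose by 0.83, a call that ended with a pseudocount of 1, with its probe sets averaged (0.39), once those of shared sequence were dropped, and when mouse _948 or _952 was left out. The list had 2 rises without mouse _951, under either rescaling and with a pseudocount of 64. In it 2 genes fell, not 3, when _948, _952 or _953 was left out, under either rescaling and with a pseudocount of 1. Eif2ak1 was named after its value was seen.

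Of 17 genes of mitochondrial biogenesis and genome expression, 4 rose and 1 fell, while 8.27% of all named genes rose and 13.8% fell. Myc, a transcription factor that binds CACGTG, averaged 494 ± 41.7 in CD117pos and 203 ± 32.7 in CD117neg arrays, a difference of 1.23 ± 0.15 (limma, adjusted p = 0.00494). Tfb1m, a methyltransferase of mitochondrial ribosomal RNA, differed by 1.02 ± 0.11, and Lrpprc and Polrmt, named after their values were seen, by 0.66 ± 0.15 and 0.47 ± 0.12. Esrra, a nuclear receptor that promotes mitochondrial gene expression, fell, at 58.6 ± 7.37 against 189.9 ± 15.2 (difference -1.47 ± 0.13). Leaving out any mouse but _951 left 2 rises, as did a pseudocount of 1. Of 12 cytosolic chaperones that deliver precursor proteins, 1 rose, Ubqln4 (difference 0.77 ± 0.10), and 0 fell, with 3 rises under either rescaling and with a pseudocount of 64, and 2 without mouse _951. A single rise in 12 is near the share over all named genes. Of 13 outer membrane channels and inner membrane carriers, which are themselves import substrates, 1 rose and 1 fell: the citrate carrier gene Slc25a1 by 0.55, a call lost with a pseudocount of 1 and when any mouse but _951 was left out, and the acylcarnitine carrier gene Slc25a20, with a difference of -0.81 ± 0.13, lost when mouse _948, mouse _953 or 1 array, CD117pos of mouse _951, was left out. Without mouse _951 the list had 3 rises and 2 falls, and rises numbered 3 after quantile normalisation and 2 after centring or with a pseudocount of 64. The median difference of this list was 0.09, and 1 rise in 13 is also near the share over all named genes.

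**Figure D4:**
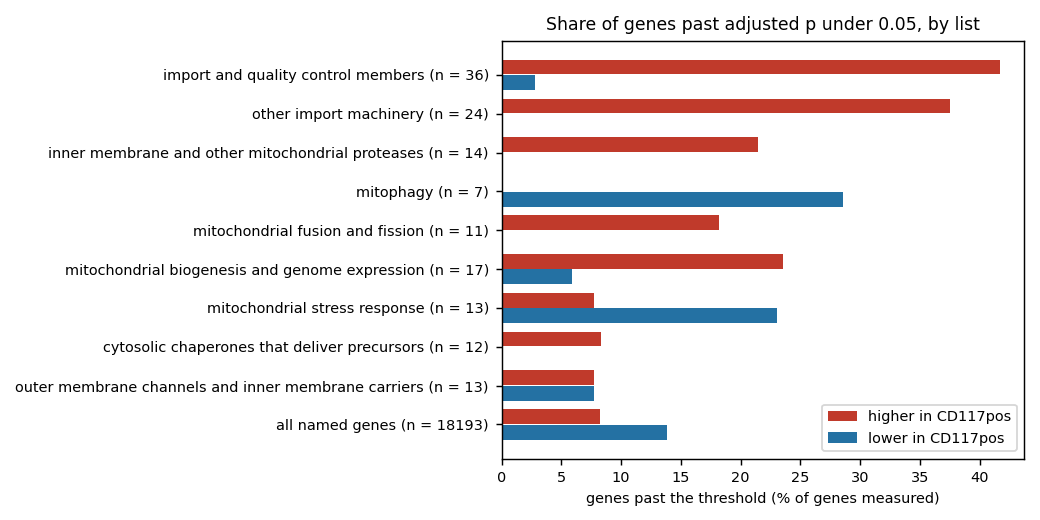
Share of genes past the threshold in each list, higher (red) and lower (blue) in CD117pos, as a percentage of the genes measured (n in brackets), with the 36 members at the top and all 18193 named genes at the bottom. Rises reach 41.7% of the members, and falls outnumber rises among mitophagy genes, stress response genes and all named genes.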

How the data were processed

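Per the labels' protocols, polyA RNA was column-purified, amplified in 2 cycles and biotin-labelled for 1-colour Affymetrix arrays. Each of the 8 arrays had a deposited linear intensity for 45101 probe sets. The software for probe summary and scaling was not given in the sources used. Array medians were 27.5 to 32.8, and 841 to 898 values per array were exactly 1. Precision is limited by the number of arrays. Gene names came from the platform annotation (34945 with 1 symbol, 932 with several, 9160 with none, 64 controls left out), and all 36 members matched the RefSeq table by gene identifier.

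Values were used as log2(intensity + 16). Fractions were compared with limma 3.58.1 in R 4.3.3 (lmFit, eBayes, two-sided), with mouse as a block, adjusted by Benjamini-Hochberg over 18193 genes (threshold 0.05). The mouse block was used because both fractions came from every mouse, per the series' design text. Deviations from the fraction mean correlated at 0.21, 0.22, 0.27 and 0.12 within the mice and at most at 0.11 between mice. The fit was tested on simulated data. Partner genes were compared by exact permutation tests over mice. Alternatives changed the pseudocount, scaling, probe set choice, intensity filter, variance trend, block and mice. All members were named or counted, Kit as a check, and of each other list up to 3 genes past the threshold with the largest difference. Where none passed, the member with the largest difference was eligible. The members and lists were chosen with earlier results of these data known. Python 3.11.15 with matplotlib 3.10.9 drew the figures.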

Additional observations from a re-analysis of the deposited data

Results flagged for a closer look

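Within each fraction, 4 of 72 sets of 4 arrays held 1 array far from the other 3, by Dixon's test at its 95% critical value. Chance alone gives about 1 in 20. In CD117pos arrays, Timm44 reached 2058 in mouse _951, with 899.9 to 942.6 elsewhere. Pmpca was at 308.4 in the CD117pos array of mouse _951, against 507.4 to 549 in the others. Tomm22 was at 551.9 in the CD117pos array of mouse _952, against 463.4 to 473.9. Tomm20l was at 1.33 in the CD117neg array of mouse _948, against 1 in the other 3 CD117neg arrays, values at the floor that carry no information.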

How the results depend on the processing

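Of the counts over the 36 members, rises numbered 23 after quantile normalisation, against 15 as deposited, and falls 2 with a pseudocount of 64, against 1. Leaving out 1 mouse at a time gave 6 to 16 rises and 0 to 1 falls. The members' median difference of 0.44 was 0.63 after quantile normalisation and 0.58 after centring. In the fit with no replicate block 18 members rose and 1 fell, and the 16 calls were kept. The 16 calls were also kept with a pseudocount of 64, after both rescalings, with the intensity filter and with the trend. A pseudocount of 1 left 11 of them and averaging probe sets 15. Over all genes, rises numbered 992 with a pseudocount of 1, 2420 after quantile normalisation and 416 to 2106 without 1 mouse, against 1504, and falls 1181 to 2983, against 2511.

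Signs turned for 4 genes, none past the threshold under these settings. Pmpca differed by 0.0762 after quantile normalisation, 0.0228 after centring, 0.26 with the mean of probe sets and 0.0716 when 1 array, CD117pos of mouse _951, was dropped with no block, and by -0.26 to 0.10 without 1 mouse. Tomm20 ranged from -0.00297 to 0.0724 without 1 mouse. Sqstm1 differed by 0.0172 without probe sets of shared sequence. Pdgfrb, a stromal marker, differed by -0.65 when that same array was dropped with no block, and by -0.41 to 0.74 without 1 mouse, against 0.39. The cause was not tested.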
